A study of Mus musculus with 28 samples.

Results

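Annexins are proteins that bind acidic phospholipids when calcium rises, through a core of conserved repeats. They serve membrane repair, vesicle traffic and the link between membranes and actin, and fibroblasts express several of them in quantity. Here the mRNAs of 9 annexins were followed in RNA that came down with PKR, a kinase that double-stranded RNA activates. The 9 members (Anxa1, Anxa2, Anxa3, Anxa4, Anxa5, Anxa6, Anxa7, Anxa8 and Anxa11) were chosen by the gene symbol in the deposited tables, out of 12 annexin features and 30210 features in all. They were picked with earlier results of these data in view, namely the separation of WT from RM precipitates. Values of that contrast are therefore given as a description, with no p for any gene. Where it is said how many genes passed a threshold in it, the count supports nothing. The share of all features stands beside it except for counts at an unadjusted p, by DESeq2 or under other alternatives.

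The cells were mouse embryonic fibroblasts (MEF) reconstituted with wild-type PKR (WT) or with PKR mutated in each of its dsRBMs, the motifs that hold double-stranded RNA (RM). WT and RM cells were each mock-treated or given 0.1 mM palmitic acid, a saturated fatty acid, and every library was made from PKR immunoprecipitates. Datasets A and B had 3 libraries in each of the 4 groups, called biological replicates in the series' design, and dataset C had 1 library per group. The labels do not say whether RM and WT cells were clones, and the columns of dataset B carry a 2hr mark that no label explains. With no input RNA and no control precipitate among the samples analysed here, the amount of an mRNA in the cells, its recovery with PKR and background cannot be told apart.

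Total counts per library were 254762 to 8036622 in dataset A, 2204502 to 7122087 in dataset B and 7462653 to 11658726 in dataset C. The library with the fewest counts was replicate 2 of RM under palmitate in dataset A, and RM palmitate replicates 2 and 3 of dataset B had the lowest scaling factors of that dataset, 0.82 and 0.637. For members that these libraries move most, the value without them is given beside the result or beside the counts of members that passed. All 12 fibroblast markers were at 1 CPM (counts scaled to the library total) or more in every group. Of 8 epithelial markers, 4 were at 0 in each group of dataset A, and their summed level was 12.2 to 30.6 CPM in dataset B. Levels of datasets A and B below are CPM after scaling by the trimmed mean of M-values (TMM), which assumes that most features do not differ between libraries. Levels of dataset C are scaled to total counts unless TMM is named.

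Per kilobase of counted exon, the members covered a wide range, and Anxa2 led in every group but RM under palmitate in dataset A, where Anxa1 led through 1 library described below. With WT under mock in dataset B, Anxa2 led with 993 ± 14 CPM per kb (SD, n = 3), Anxa1 had 466 ± 68.5 and Anxa5 had 398 ± 39.1. Anxa6 (101 ± 8), Anxa3 (79.6 ± 10.2) and Anxa7 (42.5 ± 3.72) followed on the same scale. Anxa4 (27.7 ± 3.36), Anxa8 (26 ± 2.14) and Anxa11 (11.2 ± 0.921) were lowest. Neighbours in this order did not overlap except Anxa1 with Anxa5 and Anxa4 with Anxa8. In the RM groups of dataset B, and in all 4 groups of dataset A, Anxa8 moved to the last place. The 3 annexin features that are not members, Anxa9, Anxa10 and Anxa13, had 93, 0 and 1 counts in all of dataset A and 85, 1 and 2 in dataset B.

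Anxa8, a membrane-binding annexin found at endosomes, separated WT from RM by the widest margin. The gene lies on chromosome 14 at 34899167 to 34913757 of mm9, plus strand. In dataset B its level was 45.9, 53.4 and 47.3 CPM with WT under mock and 7.80, 10.8 and 8.18 CPM with RM under mock. Under palmitate it was 43.5, 38.5 and 42.4 CPM in WT libraries and 4.88, 8.31 and 5.83 CPM in RM libraries. Every WT library of dataset B stood above every RM library, and the lowest WT value was several times the highest RM value. The WT minus RM log2 difference was 2.44 ± 0.16 (SE) under mock and 2.77 ± 0.19 under palmitate, or 5.43-fold and 6.8-fold. Anxa8 was rare in dataset A, with 74 counts over 12 libraries, and did not pass the filter on low counts there. Its level was 0.552, 2.78 and 1.24 CPM in WT libraries and 0.759, 0.724 and 0.741 CPM in RM libraries under mock, so that the groups overlapped. Under palmitate it was 1.47, 2.61 and 2.06 CPM in WT libraries and 0.841, 0 and 1.1 CPM in RM libraries, with every WT library above every RM library, on at most 12 counts in a library.

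Anxa7, also called synexin, aggregates secretory vesicles, and its gene (chromosome 14, 21274483 to 21299355 of mm9, minus strand) showed the next widest margin. In dataset B it stood at 136, 135 and 116 CPM in WT libraries and 61.2, 63.4 and 53.2 CPM in RM libraries under mock. Under palmitate the values were 95.3, 108 and 87 CPM in WT libraries and 59.4, 39.4 and 37.3 CPM in RM libraries. WT and RM libraries did not overlap under either treatment. The log2 difference was 1.12 ± 0.15 under mock and 1.07 ± 0.16 under palmitate. In dataset A the WT and RM libraries of Anxa7 overlapped under both treatments, with log2 differences of 0.31 ± 0.22 and 0.44 ± 0.23.

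**Figure D1:**
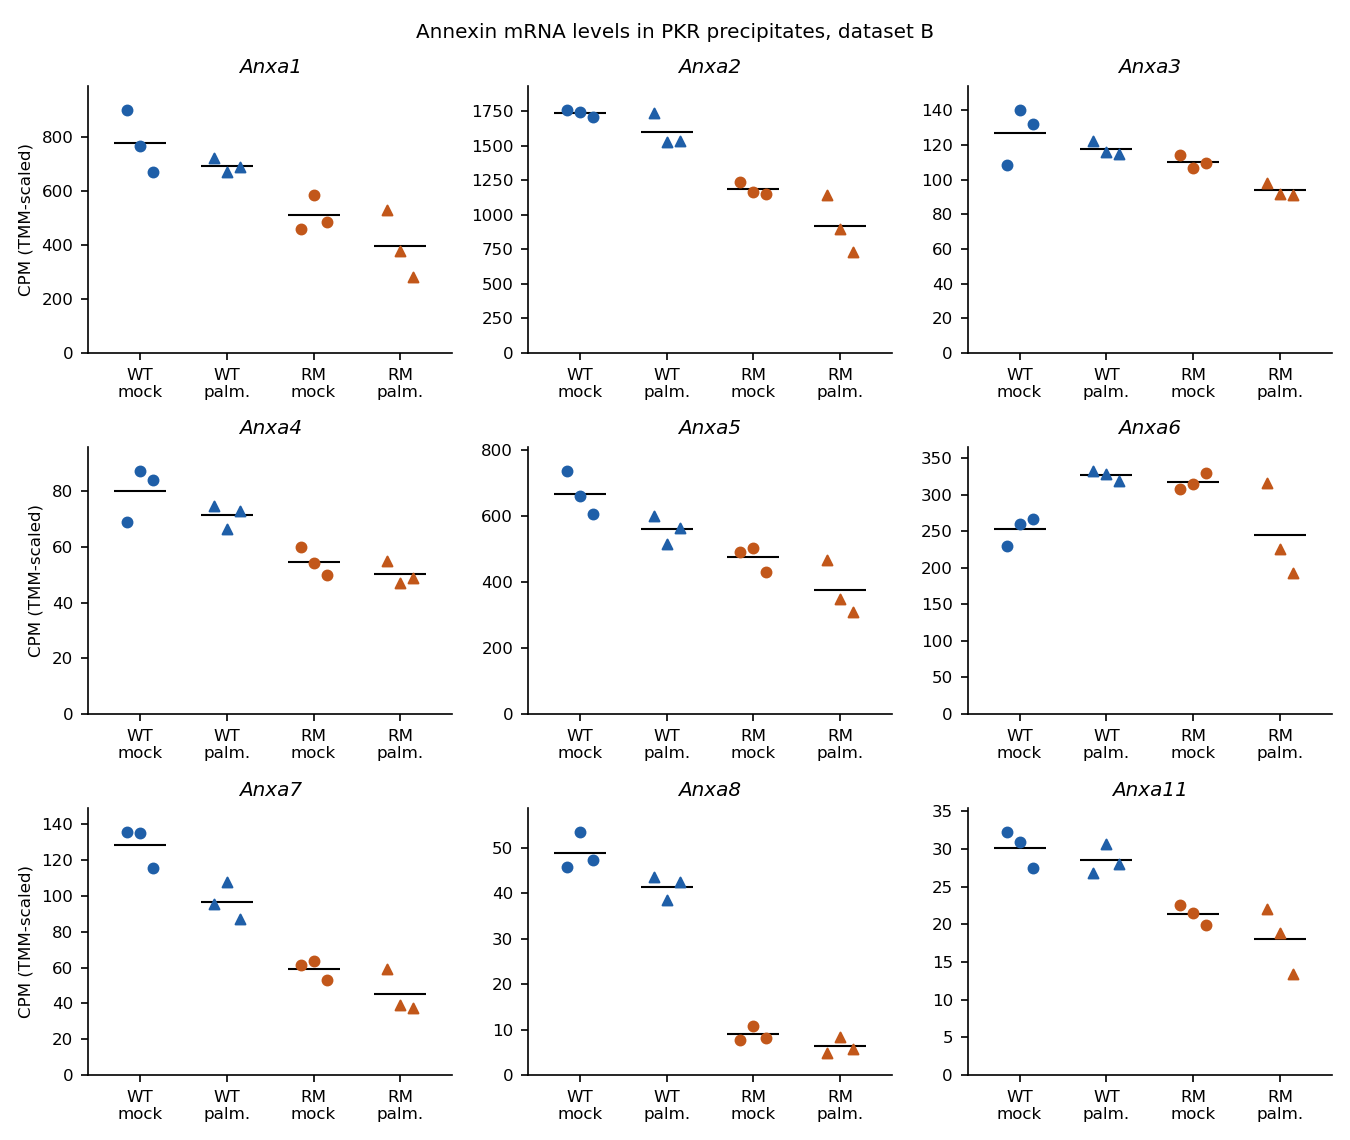
Level of each annexin mRNA in dataset B, in CPM after TMM scaling on linear axes that start at 0; each point is 1 library (circles mock, triangles palmitate, blue WT, orange RM) and each line a group mean of 3. Anxa8 and Anxa7 show WT libraries well above RM libraries, and Anxa6 is the member whose RM libraries under mock (307 to 330 CPM) lie above its WT libraries (230 to 267 CPM).

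The abundant members stood moderately higher with WT in dataset B. Their genes lie at 20447918 to 20465434 of chromosome 19 (Anxa1, minus strand), 69301427 to 69339602 of chromosome 9 (Anxa2, plus strand, overlapping an annotated miRNA feature) and 36347847 to 36374765 of chromosome 3 (Anxa5, minus strand) in mm9. Anxa1, a glucocorticoid-induced protein whose amino-terminal part acts on formyl peptide receptors, had 901, 768 and 673 CPM in WT libraries and 462, 588 and 488 CPM in RM libraries under mock. Anxa2, which pairs with S100a10 and binds plasminogen activator at the cell surface, had 1755, 1743 and 1708 CPM in WT libraries and 1236, 1163 and 1152 CPM in RM libraries. Anxa5, the phosphatidylserine binder used as a probe of dying cells, had 736, 663 and 605 CPM in WT libraries and 490, 503 and 431 CPM in RM libraries. All 3 WT libraries lay above all 3 RM libraries for each of these mRNAs, as for 7 of the 9 members and 18.2% of all features under mock. The log2 differences under mock were 0.61 ± 0.20 for Anxa1, 0.55 ± 0.18 for Anxa2 and 0.49 ± 0.16 for Anxa5. Under palmitate they were 0.80 ± 0.20, 0.80 ± 0.18 and 0.58 ± 0.16, again without overlap, as for all 9 members and 15.3% of all features under palmitate. Without RM palmitate replicates 2 and 3 the palmitate values were 0.40 for Anxa1, 0.49 for Anxa2 and 0.27 for Anxa5.

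Among the scarcer members, Anxa4, which assembles on membranes, had 69, 87.2 and 83.9 CPM in WT libraries against 60, 54.1 and 49.9 CPM in RM libraries under mock in dataset B. Anxa11, which carries a long low-complexity tail and tethers RNA granules to lysosomes, had 32.2, 30.9 and 27.4 CPM against 22.5, 21.6 and 19.9 CPM. Neither overlapped, and their log2 differences were 0.55 ± 0.12 and 0.49 ± 0.14 under mock and 0.50 ± 0.13 and 0.61 ± 0.16 under palmitate, or 0.38 and 0.37 without RM palmitate replicates 2 and 3. Anxa3 differed least, with 109, 140 and 132 CPM against 114, 107 and 109 CPM under mock, where the groups overlapped. Its log2 difference was 0.21 ± 0.11 under mock and 0.33 ± 0.11 under palmitate.

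Anxa6, an annexin with a duplicated core that acts in late endosomes and cholesterol traffic, did not follow the others. Its gene lies at 54792610 to 54846947 of chromosome 11 of mm9, minus strand. Under mock in dataset B it had 230, 260 and 267 CPM in WT libraries and 307, 315 and 330 CPM in RM libraries, so that all RM libraries were above all WT libraries, as for 18.6% of all features. Under palmitate it had 332, 328 and 319 CPM in WT libraries and 316, 226 and 193 CPM in RM libraries, and the order was the opposite. The log2 difference was -0.33 ± 0.15 under mock and 0.41 ± 0.15 under palmitate, and the difference between these, the palmitate effect with WT minus that with RM, was 0.74 ± 0.21. Without RM palmitate replicates 2 and 3 the latter values became 0.049 and 0.38. In dataset A, Anxa6 stood higher with WT under mock, at 161, 168 and 137 CPM against 88.5, 91.1 and 99.5 CPM, a log2 difference of 0.74 ± 0.28.

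By edgeR's quasi-likelihood test over all features, at an adjusted p under 0.05, 7 of the 9 members (all but Anxa3 and Anxa6) passed as higher with WT in dataset B under mock, where 6.24% of the 12466 features tested did. The same 7 passed under palmitate, where 3.62% of features did. This is the contrast the members were chosen on, so nothing is read from these counts. The median log2 difference of the 9 members was 0.55 under mock and 0.61 under palmitate, and that of all features was 0.024 and -0.0027. The number that passed changed with the libraries used: between 2 and 5 members passed under mock, and between 2 and 9 under palmitate, when 1 library of the compared groups was left out. The share of all features in those refits is not given, and nothing is read from their counts either. All 9 members had a positive difference under palmitate, as did 49.7% of features. All 9 still had one without RM palmitate replicates 2 and 3, which leaves 1 RM library, from 0.049 for Anxa6 to 3.09 for Anxa8, and Anxa7 had 0.70.

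Marker levels of other cell types also differed between WT and RM libraries in dataset B. The summed level of the 8 epithelial markers was 28.1 to 29.1 CPM with WT and 20.6 to 22.8 CPM with RM under mock, with Cldn4 at 0 with WT and Epcam and Krt5 at 0 with RM, and 2 markers at 1 CPM or more in both groups. The 4 neuronal markers summed to 9.59 to 12.4 CPM with WT and 5.18 to 6.32 CPM with RM under mock, with Rbfox3 and Snap25 at 0 in both. The summed level of the 6 endothelial markers went the other way under mock, at 3.18 to 5.10 CPM with WT and 6.68 to 8.70 CPM with RM. So did that of the 12 fibroblast markers, at 17776 to 18936 CPM with WT and 22659 to 24812 CPM with RM. Single markers need not follow a sum. S100a4, a fibroblast marker here, had 214, 441 and 344 CPM in WT libraries and 189, 161 and 138 CPM in RM libraries under mock. The other fibroblast markers are not given singly. Under palmitate the fibroblast sums overlapped, at 23208 to 24669 CPM with WT and 16301 to 24406 CPM with RM. The sums of the muscle and of the macrophage and lymphocyte markers overlapped under mock. Under palmitate the muscle sums did not overlap, at 38.9 to 57.8 CPM with WT and 23.9 to 31.0 CPM with RM. Nor did the neuronal sums, at 6.18 to 10.4 CPM with WT and 2.91 to 5.54 CPM with RM. The epithelial, endothelial, and macrophage and lymphocyte sums overlapped under palmitate. The part of these markers in the differences of the annexins was not tested.

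**Figure D2:**
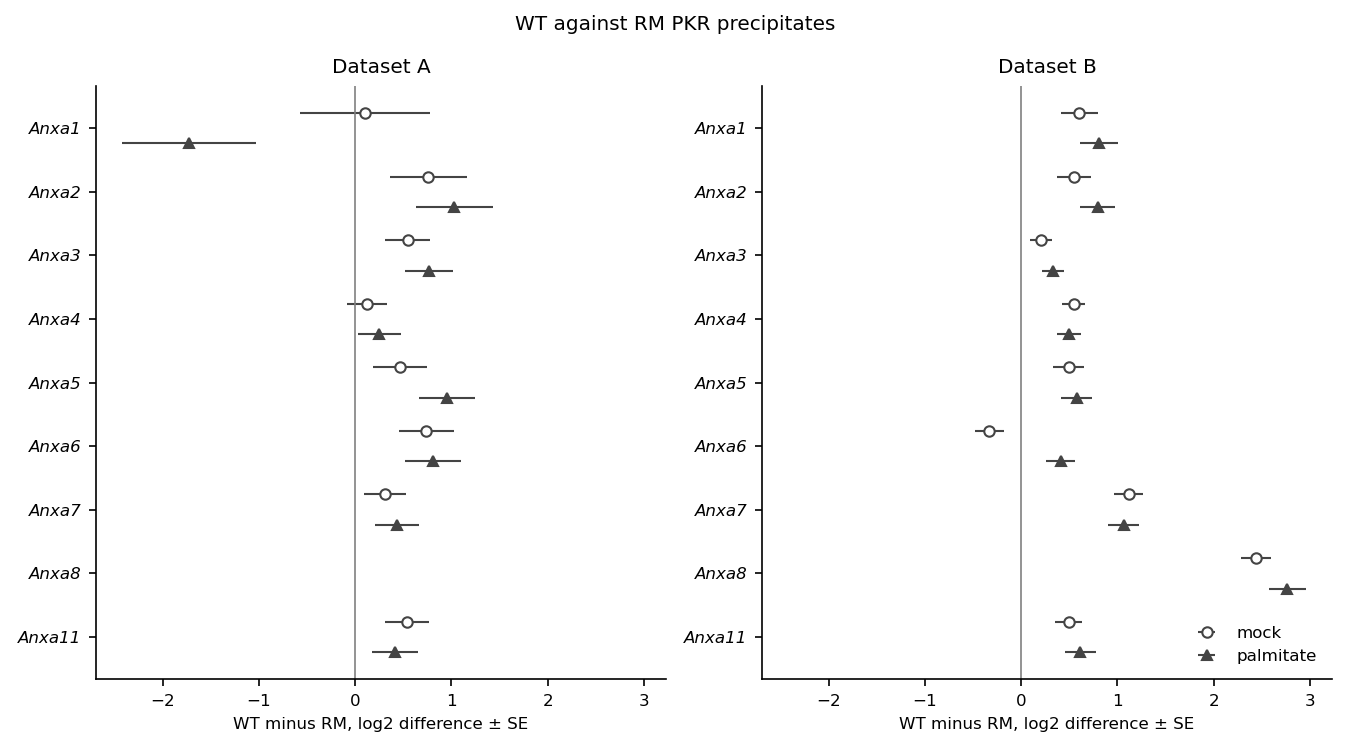
WT minus RM log2 difference of each annexin with its SE in dataset A (left) and dataset B (right), open circles under mock and filled triangles under palmitate, from fits of 12 libraries. In dataset B, Anxa8 and Anxa7 lie farthest to the right and Anxa6 is on both sides of 0, while in dataset A Anxa1 under palmitate lies at -1.73 and Anxa8 has no value.

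In dataset A, 8 members passed the filter, and none of them passed the test between WT and RM, where 3.74% of 11328 features did under mock and 3.43% under palmitate (edgeR). At an unadjusted p under 0.05 the counts were 3 and 5 members, and DESeq2 called none under mock and 1, Anxa5, under palmitate. The 5 include Anxa1, which lay lower with WT through 1 library described below. No share of all features stands beside these counts, and nothing is read from them. All 8 differences were positive under mock, as were 50.4% of those of all features, with a median of 0.50 beside 0.0054 for all features. Anxa2 had 426, 414 and 392 CPM in WT libraries and 210, 240 and 277 CPM in RM libraries under mock, a log2 difference of 0.76 ± 0.40. The libraries of Anxa2, Anxa3, Anxa5, Anxa6 and Anxa11 did not overlap there, 5 of 8 members, and 17.5% of all features had all WT libraries above all RM libraries. Under palmitate Anxa3, Anxa4 and Anxa5 did so, 3 of 8 members beside 11.6% of features. Their log2 differences were 0.77 ± 0.25, 0.25 ± 0.22 and 0.95 ± 0.29, or 0.68, 0.15 and 0.77 without RM palmitate replicate 2. For Anxa4 the lowest WT library (19.4807 CPM) barely cleared the highest RM library (19.4775 CPM). Scaled to total counts instead of TMM, the median of all features moved by -0.19 under mock and -0.40 under palmitate. The signs of Anxa1 and Anxa4 under mock and of Anxa4 and Anxa11 under palmitate turned negative with it, and relative to the median of all features they had the values 0.077, 0.12, 0.30 and 0.38.

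Anxa1 in dataset A was decided by 1 library. With RM under palmitate it had 342, 2651 and 223 CPM in replicates 1, 2 and 3, and with WT under palmitate 223, 351 and 384 CPM. Replicate 2, the library of 254762 counts, held 769 counts of Anxa1 but 25 of Anxa2, 1 of Anxa4 and none of Anxa8. Its Anxa1 level was 9.39 times the mean of the other 2 replicates, and of 235 features with at least 100 counts in that library, 31 had a larger ratio. The WT minus RM difference under palmitate was -1.73 ± 0.69 with this library and 0.16 without it.

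**Figure D3:**
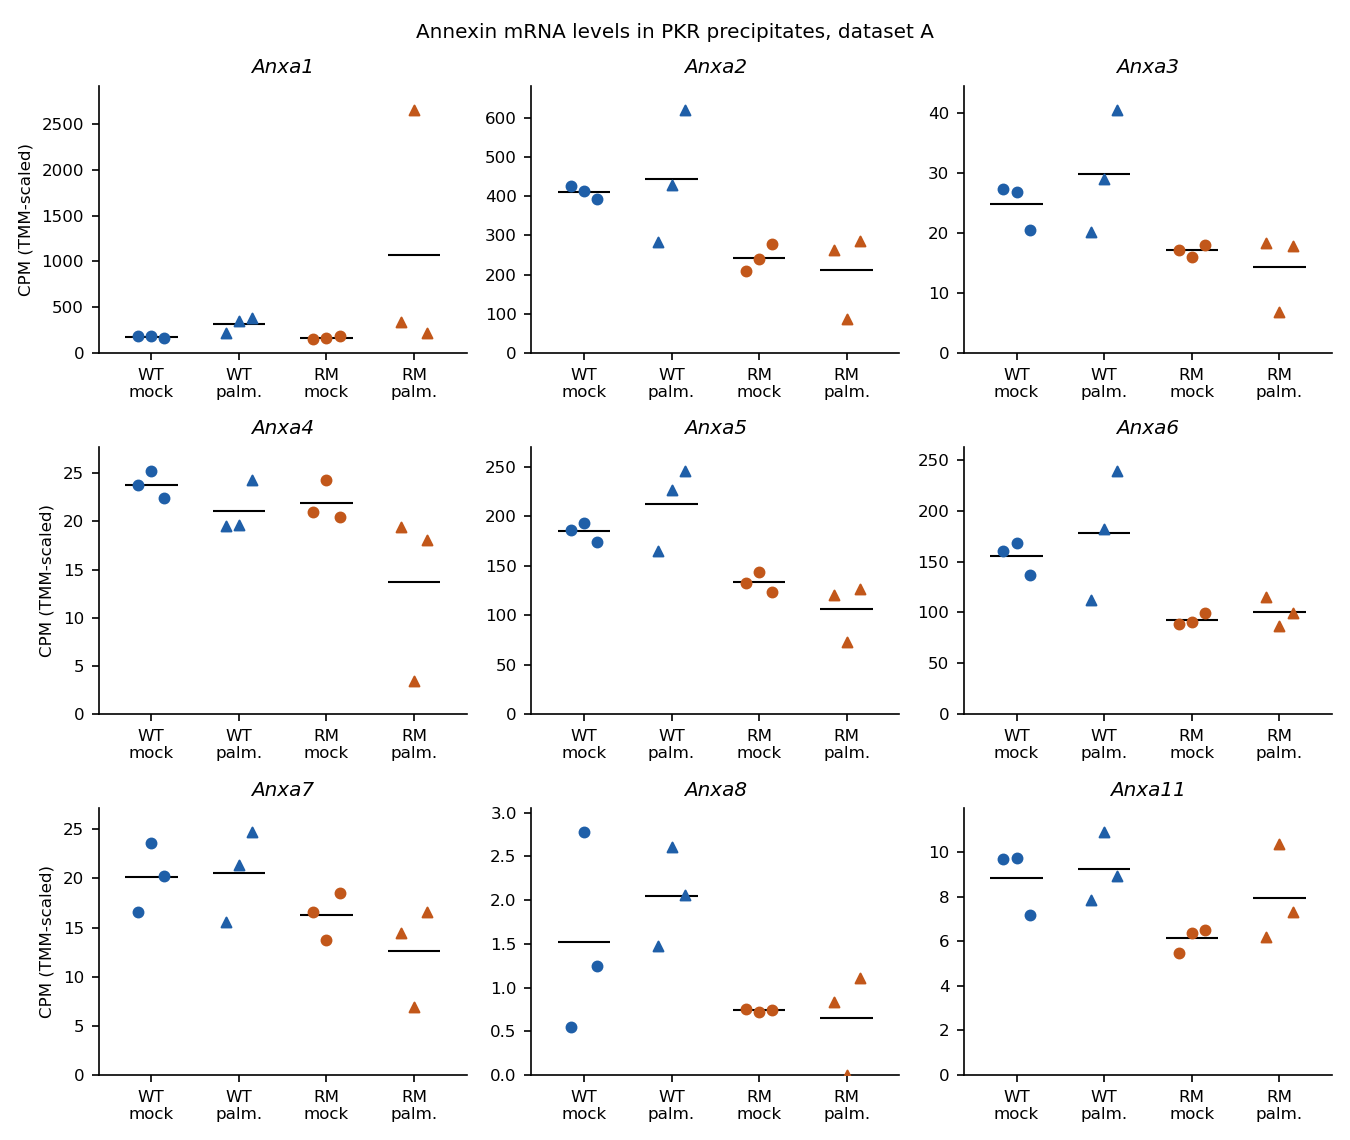
Level of each annexin mRNA in dataset A, in CPM after TMM scaling on linear axes that start at 0, drawn as for dataset B. In the panel of Anxa1, RM palmitate replicate 2 stands at 2651 CPM, far above the other 11 libraries (154 to 384 CPM), and the other members show no such library.

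The palmitate effect was tested within each PKR form, a contrast that did not choose the members but shares its libraries with those of WT against RM. No member passed edgeR's test in dataset A, where 0.335% of features did with WT and 0.477% with RM. None passed in dataset B either, where 15.5% of features did with WT and 7.53% with RM. At an unadjusted p under 0.05 the counts in dataset A were 0 of 8 with WT and 1 with RM. In dataset B they were 2 of 9 with WT and 3 with RM, and DESeq2 called none in any of the 4 comparisons. Here and in the averages below, the share of all features at an unadjusted p or by DESeq2 is not given, and nothing is read from those counts. With 3 libraries per group these tests do not show that palmitate left the mRNAs as they were.

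Anxa7 and Anxa6 came closest with WT in dataset B. For Anxa7 the libraries cited above lay at 116 to 136 CPM under mock and 87 to 108 CPM under palmitate, without overlap, a log2 difference of -0.42 ± 0.15 (adjusted p = 0.0689, edgeR). For Anxa6 the libraries lay at 230 to 267 CPM under mock and 319 to 332 CPM under palmitate, also without overlap, a log2 difference of 0.37 ± 0.15 (adjusted p = 0.105, edgeR). Both passed when RM palmitate replicates 2 and 3 were left out of the shared estimate of the spread, with adjusted p = 0.0175 for Anxa7 and 0.00769 for Anxa6 by edgeR, at log2 differences of -0.41 and 0.38. Over all alternatives run the adjusted p ran from 0.0175 to 0.263 for Anxa7 and from 0.00769 to 0.473 for Anxa6. In the authors' deposited table, Anxa6 (log2 ratio 0.393) and Anxa7 (log2 ratio -0.306) passed a false discovery rate of 0.05, as read from its score column, with WT in dataset B. No other member passed there or in the 3 other comparisons of that table. The share of all features past that score is not given here. These are the same libraries, and nothing is read from that count. In all, 4 of 9 members did not overlap between WT mock and WT palmitate, beside 38.8% of features: Anxa5 and Anxa8 had all WT palmitate libraries below all WT mock libraries in dataset B, with differences of -0.25 ± 0.16 and -0.23 ± 0.14.

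With RM in dataset B all 9 differences were negative, as were 51.4% of those of all features, from -0.11 ± 0.13 for Anxa4 to -0.56 ± 0.22 for Anxa8, with a median of -0.36 beside -0.014 for all features. Anxa2 had 1236, 1163 and 1152 CPM under mock and 1141, 897 and 727 CPM under palmitate, a log2 difference of -0.36 ± 0.18 (adjusted p = 0.205, edgeR). Replicate 1 was nearest to the mock libraries for this mRNA, and replicates 2 and 3 were the low ones. Without replicates 2 and 3, the differences ran from -0.87 for Anxa8 to 0.053 for Anxa1, and 5 of the 9 were positive. Without replicate 1 instead, the differences ran from -0.64 to -0.20 over the 9. In that refit 5 members passed, but its share of all features is not given here, so nothing is read from the count.

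Anxa1 was the member with the widest palmitate difference in dataset A. With WT it had 183, 181 and 168 CPM under mock and 223, 351 and 384 CPM under palmitate, with all palmitate libraries above all mock libraries (1 of 8 members, 7.66% of features), a log2 difference of 0.85 ± 0.68 (adjusted p = 0.671, edgeR). With RM it had 154, 159 and 181 CPM under mock and the values given above under palmitate, again all above mock (1 of 8 members, 6.97% of features), a log2 difference of 2.68 ± 0.72 (adjusted p = 0.136, edgeR). Over the alternatives run the latter adjusted p ran from 1.51e-07, with no filter on low counts, to 0.425, and the call was also made without replicate 3. Without RM palmitate replicate 2 these differences were 0.88 (adjusted p = 0.0796, edgeR) and 0.80 (adjusted p = 0.146, edgeR). In dataset B the same mRNA had differences of -0.17 ± 0.19 with WT and -0.36 ± 0.20 with RM. The difference between datasets, A minus B, was 1.05 ± 0.78 with WT (adjusted p = 0.573, edgeR) and 2.96 ± 0.80 with RM (adjusted p = 0.178, edgeR). Without RM palmitate replicate 2 of dataset A the latter was 1.16 (adjusted p = 0.125, edgeR).

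**Figure D4:**
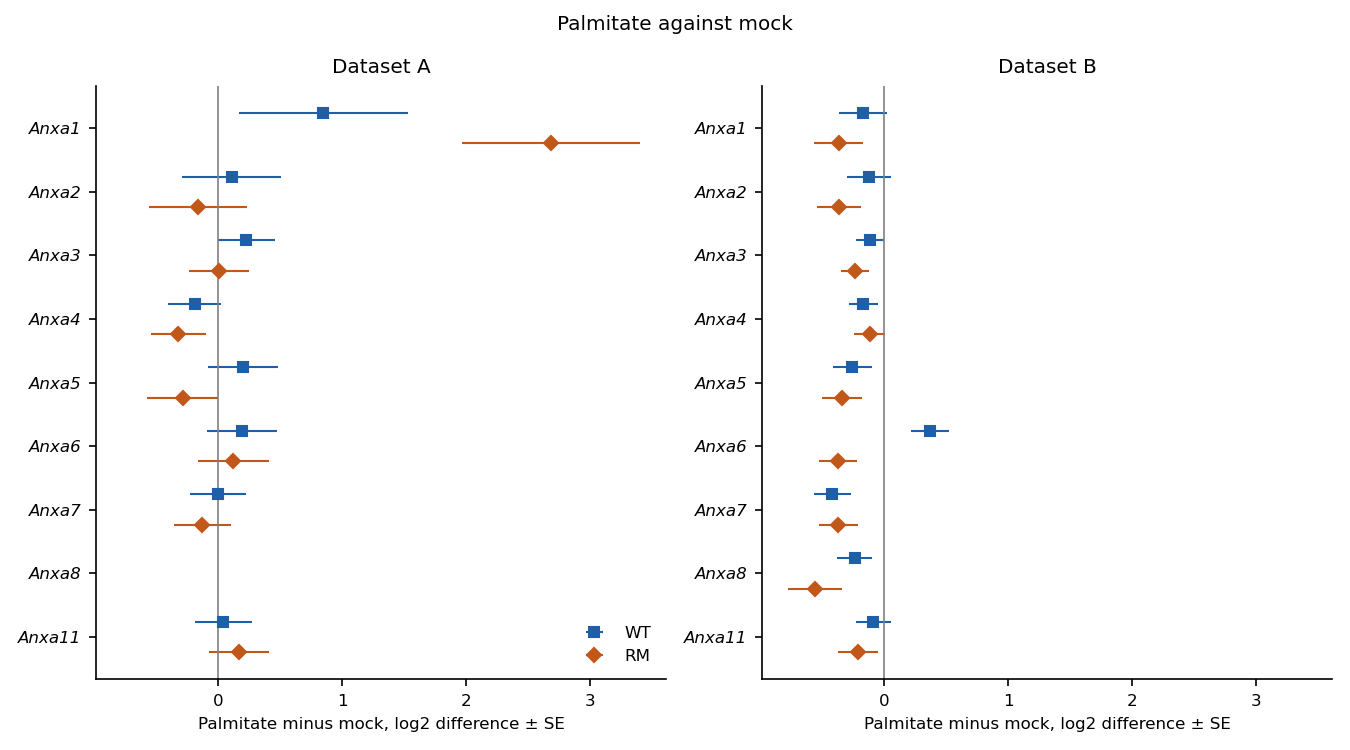
Palmitate minus mock log2 difference of each annexin with its SE in dataset A (left) and dataset B (right), blue squares with WT and orange diamonds with RM, from fits of 12 libraries. Anxa1 with RM in dataset A lies at 2.68 and rests on 1 library, Anxa6 is the member with WT and RM on opposite sides of 0 in dataset B, and no member passed the test.

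Averaged over datasets A and B in a fit of 24 libraries, no member passed for palmitate with WT, where 9.52% of 12683 features did, or with RM, where 9.04% did. None passed over both PKR forms, where 20.3% of features did, and Anxa1 was closest there with 0.74 ± 0.28 (adjusted p = 0.0683, edgeR). At an unadjusted p under 0.05 the 3 counts were 0, 1 and 3 of 9, and DESeq2 called 0, 1 and 1, Anxa1 where it called any. Without RM palmitate replicate 2 of dataset A the average of Anxa1 was 0.29 (adjusted p = 0.0537, edgeR). By edgeR no member passed for a difference between datasets A and B in its palmitate effect, where 0.189% of features did with WT and 0.00788% with RM. At an unadjusted p under 0.05 the counts were 0 with WT and 1 with RM, and DESeq2 called 0 and 1. The 1 member was Anxa1 by both. The palmitate effect with WT minus that with RM was not called for any member or any other feature in either dataset (0.0% of features in each).

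In dataset C, scaled to total counts, all 9 annexins were lower with WT than with RM, as was nearly every feature. The 9 mRNAs together held 1043 counts with WT and 8623 with RM under mock, 0.014% and 0.0853% of each library, and 1289 and 12610 counts under palmitate, 0.0167% and 0.108%. Which column is palmitate was read from the words treat and control in the table headers, and which PKR form from the table that holds the column, since no label of a column states either. The direction of WT against RM in dataset C, opposite to that of most members in dataset B, holds under that reading and with scaling to total counts. By TMM, the scaling used in dataset B, 8 of 9 log2 ratios were negative under each treatment, beside 51.0% and 52.3% of features. The median of the members was then -0.19 under mock and -0.30 under palmitate, and Anxa3 was positive under both. The values under mock include Anxa8, whose 0 counts with WT leave its ratio to the prior count. Anxa2 had 52.8 CPM with WT under mock, 62 with WT under palmitate, 314 with RM under mock and 345 with RM under palmitate. Anxa1 had 23.9, 26.1, 153 and 270 CPM in the same order, and Anxa7 had 6.03, 5.3, 34.3 and 34 CPM. Counts lay on the sense strand but for 1 count with WT under mock and 2 with RM under palmitate.

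Scaled to total counts, all 9 members were at least 2-fold lower with WT under both treatments, as were 89.8% of 12306 features under mock and 87.7% under palmitate. The median log2 ratio of all features was -2.39 under mock and -2.30 under palmitate, and that of the members was -2.57, with Anxa8 at its bound, and -2.56. Relative to the median of all features, Anxa1 lay at -0.28 under mock and -1.06 under palmitate, Anxa6 at -0.50 and -0.39, and Anxa3 at 0.22 and 0.35. Anxa7, which stood above RM in dataset B, lay at -0.095 and -0.36. Scaling by TMM moved the median by 2.37 under mock and 2.25 under palmitate, and then 2 members (Anxa8 and Anxa11) and 1 member (Anxa1) were at least 2-fold lower, beside 9.71% and 8.59% of features. Anxa8 had 0 counts with WT and 17 with RM under mock, so its TMM value there rests on the prior count and measures no fold. Scaled to total counts, Anxa8 was at least 4.18-fold lower with WT against a floor of 3 counts in the WT library. No such bound was computed for TMM. Under palmitate Anxa8 had 2 and 24 counts, by total counts a WT level of 12.6% of that with RM (exact 95% interval 1.44% to 50.6%, counting error only). With 1 library per group none of these ratios has a replicate check.

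**Figure D5:**
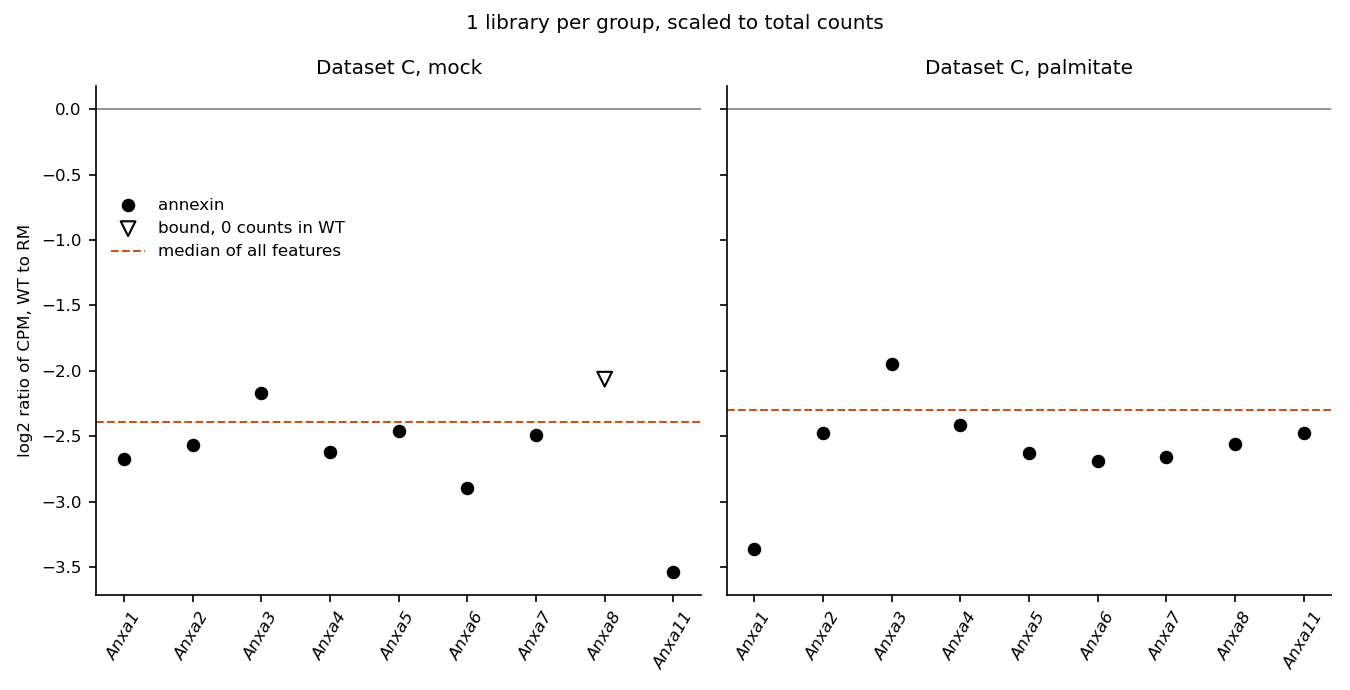
Log2 ratio of CPM, WT to RM, of each annexin in dataset C under mock (left) and palmitate (right), scaled to total counts, with 1 library per group and the dashed line at the median of 12306 features. The points lie around the dashed lines at -2.39 and -2.30 rather than around 0, and the open triangle marks the bound for Anxa8, which had 0 counts with WT under mock.

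The palmitate to mock ratios of dataset C were small. With RM no member reached 2-fold, where 8.59% of features did, and Anxa1 was highest with a log2 ratio of 0.82. With WT, Anxa11 reached 2-fold on 14 counts against 6, 225% of the mock level with an exact 95% interval of 81.2% to 714%, where 13.2% of features were at least 2-fold higher. Scaled by TMM its log2 ratio was 0.81, under 2-fold. Anxa8 is left out there because its 0 and 2 counts are under the floor of 3.

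Genes that work with annexins were taken from 5 lists chosen with earlier results of these data known. Of 9 S100 proteins, small calcium sensors that pair with annexins, 7 were tested in dataset B and 6 passed as higher with WT under mock and none as lower, where 6.24% and 7.88% of features did. S100a10, the partner of Anxa2, had 205, 237 and 208 CPM in WT libraries and 127, 115 and 103 CPM in RM libraries, a log2 difference of 0.91 ± 0.12. S100a13 (1.32 ± 0.24), S100a6 (0.72 ± 0.14) and S100a11 (0.64 ± 0.13) passed too on the same scale. Under palmitate 2 of 7 passed as higher, S100a13 and S100a10, beside 3.62% of features, and in dataset A 1 of 5 passed as higher under mock, S100a4, at 0.81 ± 0.19, beside 3.03% of features. These calls lie in the contrast that was in view when members and lists were chosen, and nothing is read from them. Palmitate lowered S100a10 with WT in dataset B by a log2 difference of -0.44 ± 0.12 (adjusted p = 0.0176, edgeR) and S100a6 by -0.43 ± 0.14 (adjusted p = 0.0399, edgeR). None of the 7 passed with RM there. Among all features 15.5% passed with WT and 7.53% with RM, in either direction. List genes were named by their p, so nothing is read from how many passed for palmitate, here or below.

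Of 14 membrane repair genes 13 were in the tables and 12 were tested. With WT in dataset B palmitate raised Dysf, dysferlin, by 0.87 ± 0.18 (adjusted p = 0.00455, edgeR), and lowered Sri, sorcin, by -0.47 ± 0.14 (adjusted p = 0.0359, edgeR) and Cav1, caveolin 1, by -0.44 ± 0.14 (adjusted p = 0.0476, edgeR). In dataset A the Cav1 libraries lay the other way with WT, at 48, 47.7 and 35.2 CPM under mock and 63.4, 64.2 and 62.8 CPM under palmitate, a log2 difference of 0.54 ± 0.21 (adjusted p = 0.301, edgeR), and the difference between datasets was 1.02 ± 0.25 (adjusted p = 0.0615, edgeR). None of the 12 passed with RM in either dataset, beside 0.477% of all features in dataset A and 7.53% in dataset B. With WT in dataset B 15.5% of all features passed. Between WT and RM, 2 of 12 were higher with WT and 1 lower under mock (Sri and Cav1, and Dysf), and 2 were higher under palmitate (Capn1 and Capn2, calpain subunits), beside 6.24%, 7.88% and 3.62% of features, and nothing is read from these calls either. Capn1 was also higher with WT in dataset A under both treatments, by 0.87 ± 0.21 under mock.

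In the plasminogen system, which Anxa2 serves at the cell surface, Plaur, the urokinase receptor, rose under palmitate in dataset B by 1.09 ± 0.19 with WT (adjusted p = 0.00191, edgeR) and by 1.04 ± 0.22 with RM (adjusted p = 0.0139, edgeR). Plau, urokinase itself, rose with RM in dataset B by 0.69 ± 0.18 (adjusted p = 0.0296, edgeR). In dataset A the mean of Plaur with WT lay the other way, at 1.92 CPM under mock and 1.44 CPM under palmitate. So did that of Plau with RM, at 4.85 and 2.64 CPM. The mean of Plaur with RM rose from 1.92 to 3.96 CPM, with 6.9 CPM in replicate 2, the library of fewest counts, where 2 counts give that level. Averaged over both datasets, Plaur passed with RM at 0.75 ± 0.20 (adjusted p = 0.020, edgeR), beside 9.04% of all features, but not with WT. Over both PKR forms it passed at 0.54 ± 0.15 (adjusted p = 0.0124, edgeR), beside 20.3% of all features. Neither average of Plaur is given without RM palmitate replicate 2 of dataset A. The difference between datasets, A minus B, was -1.52 ± 0.45 for Plaur with WT (adjusted p = 0.105, edgeR) and -1.02 ± 0.39 for Plau with RM (adjusted p = 0.267, edgeR). Plau had no count in RM palmitate replicate 2 of dataset A. The 5 formyl peptide receptor genes, through which Anxa1 acts, did not pass the filter in any fit. Of 7 genes that expose or bind phosphatidylserine, as Anxa5 does, none passed for palmitate in either dataset alone. Among all features 0.335% passed with WT and 0.477% with RM in dataset A, and 15.5% and 7.53% in dataset B. Mertk, a receptor for dying cells, fell in the average over both PKR forms and datasets by a log2 difference of -0.71 ± 0.12 (adjusted p = 0.000209, edgeR). In that average 20.3% of all features passed.

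Over the 24 libraries of datasets A and B, centred within each dataset, the feature most like Anxa8 was Anxa7 (Pearson r = 0.91 over a search of 6837 features averaging 50 counts or more). Anxa7 was in turn most like Klf2 (0.93), Anxa1 most like Eps8 (0.95), Anxa2 most like Rnh1 (0.97), Anxa5 most like Pls3 (0.96) and Anxa6 most like Ctnna1 (0.96). Without the 3 libraries that stand apart, the r of Anxa8 with Anxa7 was 0.88. Among the members themselves, Anxa2 and Anxa3 had r = 0.94 and Anxa2 and Anxa5 r = 0.94, while Anxa1 and Anxa4 had r = -0.67, which became 0.19 without those 3 libraries. The libraries share group, depth and scaling, and these values describe them only.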

How the data were processed

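RNA that co-precipitated with PKR was fragmented and made into small RNA libraries, per the labels' protocols. Base calls came from CASAVA 1.7.0 and 1.8.2 and reads were aligned with Novoalign to mm9, per the submitters' processing notes. No source used here names the counting tool, the use of strand or the program behind the test that the authors ran. The deposited counts are raw reads per feature and library. The authors' deposited tables also hold a log2 ratio of palmitate to mock and a score, per the file headers, which was read as -10 log10 of a false discovery rate. The unit CPM was computed from the deposited counts.

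The 9 members and the gene lists were chosen with earlier results of these data known. All 9 were named, and from each list the gene with the smallest p and those past the threshold, at most 4 per comparison. Counts were filtered with filterByExpr, scaled by TMM and fitted with edgeR 4.0.16 (R 4.3.3, robust quasi-likelihood, 1 mean per group, no covariate), with p-values adjusted by Benjamini-Hochberg over all features tested (11328 in dataset A, 12466 in dataset B, 12683 in both) and a threshold of 0.05. In dataset C, with 1 library per group, log2 ratios of CPM had a prior count of 1 and features a mean of at least 10 counts. Alternatives were RLE factors, total counts, no filter, DESeq2 1.42.0, a replicate block, other priors and each library left out. The fits were tested on simulated data. Intervals are exact and cover counting error only. Nothing in the files says how separate the replicates were beyond the design's word, so p-values measure the spread between these libraries. Of the per-sample columns, 52 were not used. A result of the plasminogen list is not reported here.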

Additional observations from a re-analysis of the deposited data

Results flagged for a closer look

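Anxa6 stood on opposite sides in the datasets under mock. Its WT minus RM log2 difference was 0.74 in dataset A, with all 3 WT libraries above all 3 RM libraries, and -0.33 in dataset B, with all 3 WT libraries below. The difference between the datasets was not tested, since this contrast was in view when the members were chosen.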

How the results depend on the processing

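Among the counts of called members recomputed under each alternative, 212 stayed within 1.5 times the reported count and 39 did not. The causes were not tested. Most of the reported counts were 0, and a 0 that stayed 0 is among the 212. The member counts of refits in this section have no share of all features beside them, and nothing is read from them. For WT minus RM under mock in dataset B, where 7 members passed, RLE factors gave 4 and total counts gave 2, and leaving out 1 library gave 2 to 5. Under palmitate in dataset B, where 7 passed, leaving out 1 library gave 2 to 9. Under palmitate in dataset A, where 0 passed, no filter gave 1 (Anxa1), DESeq2 gave 1 (Anxa5) and leaving out 1 library gave 0 to 3.

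For palmitate, where 0 members passed, the counts were as follows. With RM in dataset A no filter gave 1 and leaving out 1 library gave 0 to 1. With RM in dataset B total counts gave 2 (Anxa7 and Anxa8), and leaving out 1 library gave 0 to 5. Leaving out RM palmitate replicate 2 for WT in dataset A, an alternative chosen after seeing the data, gave 0. With WT in dataset B leaving out RM palmitate replicates 2 and 3 gave 2. DESeq2 gave 1, Anxa1, for the RM average, for RM in dataset A minus B and for the average over both PKR forms, and leaving out 1 library gave 0 to 1 for each. The palmitate effect with WT minus that with RM in dataset B gave 0 to 1 without 1 library.

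The replicate numbers did not pair the libraries: of 12 pairs of groups, 1 had every correlation of same-numbered libraries over 0.1, and these ran from -0.36 to 0.46. With the replicate block 1 member, Anxa7, passed for palmitate with WT in dataset B (adjusted p = 0.039, edgeR), and no other count moved by over 1.5 times.

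In dataset C, TMM gave 2 members at least 2-fold lower with WT under mock and 1 under palmitate, in place of 9 and 9, and turned Anxa3 to 0.28 and 0.36 on the log2 scale. Of the 2, Anxa8 had 0 counts with WT under mock, so its TMM ratio rests on the prior count. Palmitate to mock with WT gave 2 members counted with Anxa8, whose 0 and 2 counts are under the floor. It gave 1 with TMM, which was Anxa8, so that Anxa11 was lost, 0 with a prior count of 5, and 1, Anxa11, with a mean of at least 50 counts. With RM, 0 members, scaling to the total observations in the table headers, chosen after seeing the data, gave 1 (Anxa1).

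Total counts in place of TMM changed the split of all calls between WT and RM under palmitate from 282 higher and 106 lower to 134 and 387 in dataset A, and from 451 and 523 to 1735 and 374 in dataset B. For palmitate with RM in dataset B it changed from 633 and 306 to 433 and 1998. Of 2015 values of single members in datasets A and B, 64 lost and 32 gained their call, none that was called reversed, and 139 values that were not called changed sign. Depth limits Anxa8 in datasets A and C and the members other than Anxa1, with 0 to 25 counts each, in RM palmitate replicate 2 of dataset A.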
